A study of Mus musculus with 57 samples.

Results

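A set of 10 genes that handle heme and iron was followed through the livers of mice given 1 of 7 toxicants. They are Hmox1, Hpx, Alas1, Hamp, Hamp2, Slc40a1, Tfrc, Tfr2, Fth1 and Ftl1, chosen by symbol, and they make up 10 of the 54307 rows of the count table. Each symbol matched 1 Ensembl ID, and all 10 genes passed the filter on low counts in every comparison. Bulk RNA-seq had been run on 57 livers of male wild-type C57BL/6JJcl mice, aged 6 weeks, acclimatised for 1 week, fasted for 12 h and killed 24 h after dosing. By gavage, 4 mice received alpha-naphthyl isothiocyanate (ANIT), 7 received 4,4'-methylene dianiline (MDA), 6 received acetaminophen (APAP) and 5 received thioacetamide (TAA). Carbon tetrachloride (CCl4, 7 mice) and galactosamine (GAL, 4 mice) were given intraperitoneally, and the plant lectin concanavalin A (ConA, 7 mice) intravenously. The vehicles were methylcellulose at 0.5% by gavage (Ctrl, 13 mice), intraperitoneal saline (CIP, 2 mice) and intravenous saline (CIV, 2 mice). The protocols also name corn oil as a vehicle. No vehicle mouse received it, so for a compound dissolved in oil the compound and its vehicle cannot be told apart. RNA was taken from the outside of the left lateral lobe of perfused livers.

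Heme is made in a chain of reactions that starts with 5-aminolevulinate synthase, which Alas1 encodes in liver. Hemopexin (Hpx) carries free heme in plasma to the liver, and heme oxygenase 1 (Hmox1) opens the heme ring and frees its iron. Ferritin, a shell of heavy (Fth1) and light (Ftl1) chains, stores iron. Transferrin receptor 1 (Tfrc) takes up transferrin-bound iron, and transferrin receptor 2 (Tfr2) senses transferrin saturation in hepatocytes. Ferroportin (Slc40a1) is the iron exporter of cells and is abundant in Kupffer cells, the resident macrophages of the liver, which recycle iron from red cells. Hepcidin (Hamp) is a hepatocyte peptide hormone that makes ferroportin be degraded. Its transcription responds to BMP and SMAD signalling, which reads body iron, and to IL-6 and STAT3 signalling, which reads inflammation. Mice carry a neighbouring copy, Hamp2.

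Hepcidin's start-proximal DNA is shown because Hamp2 fell in MDA, a compound that raised Hamp. The stretches are from RefSeq on GRCm38.p6, minus strand, 5′ to 3′, and end just before the annotated start. Capitals mark GGCGCC, the core of the BMP-responsive element, and TTCNNNGAA, the core to which STAT3 binds.
Hamp, chr7:30944030-30944149: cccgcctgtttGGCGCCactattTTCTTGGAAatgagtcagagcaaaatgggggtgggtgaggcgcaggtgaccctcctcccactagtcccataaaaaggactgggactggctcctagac
Hamp2, chr7:30924182-30924301: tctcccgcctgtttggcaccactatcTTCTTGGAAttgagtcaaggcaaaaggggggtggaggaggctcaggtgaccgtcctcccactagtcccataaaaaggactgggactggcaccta
Of 117 aligned bases, 106 (90.6%) were identical. TTCNNNGAA began 97 bases before the start in Hamp and 94 bases before it in Hamp2. GGCGCC began 109 bases before the start of Hamp. Hamp2 differs there by G4A, counted from 1 at the first base of that motif in Hamp. Both strands were searched, and the motifs do not overlap each other. In the same 120 bases, GGCGCC occurs before 6.05% and TTCNNNGAA before 3.15% of all 32851 annotated starts. RefSeq windows were matched for 8 of the 10 genes, all but Hmox1 and Slc40a1. In their whole windows of 300 bases, Tfrc held GGCGCC and Alas1 held TTCNNNGAA, as do 11.9% and 8.3% of all such windows.

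Iron-responsive elements are short hairpins that the iron regulatory proteins bind when cell iron is low. In a 5′ UTR the bound protein blocks translation, and in the 3′ UTR of Tfrc it protects the mRNA. They are shown because they separate the genes whose products iron controls after transcription from the rest. A hairpin with the loop CAGTGN, in capitals below, was found by script in transcripts of GENCODE M21 for 4 of the 10 genes.
Fth1, 5′ UTR, bases 88 to 115: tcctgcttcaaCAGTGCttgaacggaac
Ftl1, 5′ UTR, bases 79 to 106: tcttgcttcaaCAGTGTttgaacggaac
Slc40a1, 5′ UTR, bases 91 to 118: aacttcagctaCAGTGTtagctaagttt
Tfrc, 3′ UTR, bases 3316 to 3343: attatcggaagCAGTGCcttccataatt
Tfrc, 3′ UTR, bases 3695 to 3722: attatcgggagCAGTGTcttccataatg
Tfrc, 3′ UTR, bases 3760 to 3787: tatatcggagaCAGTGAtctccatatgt
Tfrc, 3′ UTR, bases 3807 to 3834: attatcgggaaCAGTGTttcccataatt
The same search matched 222 of 21877 protein-coding genes (1.01%). It found none in Alas1, Hmox1, Hpx, Tfr2, Hamp or Hamp2. The measurements that follow are mRNA levels and do not read translation.

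Levels are given as CPM, the estimated counts after TMM scaling, brought to a common library total. They behave as length-corrected and are compared between genes on that basis. A gene is called, and said to rise or fall, where its Benjamini-Hochberg adjusted p over all genes tested in edgeR's quasi-likelihood test was under 0.05. Library totals ran from 13826343 to 35075809. ConA livers had a mitochondrial share of 14.6% to 39.3%, against 5.12% to 25.4% in vehicle livers. The 6 hepatocyte markers summed to 49530 to 120000 CPM in vehicle livers, to 20070 to 29720 in CCl4 and to 25780 to 33880 in GAL. The 7 Kupffer cell markers summed to 181.2 to 505.7 CPM in vehicle livers and to 33.39 to 58.32 in ConA. Erythroid markers summed to 40.99 to 328.1 CPM in vehicle livers, 107.0 to 2344 in APAP, 2958 to 5320 in TAA and 1302 to 6848 in ConA. In whole liver, fewer cells of a type and less RNA per cell cannot be told apart. Between gavage controls numbered 1 to 4 and the 9 with higher numbers, 2.33% of genes were called, Hamp2 among them, and 5 of the 7 Kupffer cell markers were lower in mice 1 to 4 (median log2 -1.02). The labels do not say whether the numbers mark a batch, and values within the number ranges are given for several genes. All ANIT mice are numbered 1 to 4, so ANIT and the number range cannot be fully told apart against all Ctrl mice. Between ANIT and Ctrl mice 1 to 4, 13.7% of genes were called, against 28.2% with all Ctrl mice. APAP mouse 1 stood apart from the other 5, with 16100 CPM of Saa1 against 249.1 to 2531, and where it ended the call of a named gene or carried much of its change, the value without it is given as well. Scaling to library totals in place of TMM moved the median log2 change of all genes from 0.10 to 0.53 in CCl4, from 0.08 to 0.84 in GAL and from 0.03 to -0.56 in ConA, in each case against the route vehicle. It moved the share of higher calls from 53.6% to 80.6%, from 44.9% to 86.7% and from 49.3% to 22.7%, respectively. In ANIT the share went from 49.5% to 23.7% with a median of -0.23, and in APAP from 54.3% to 72.5% with a median of 0.22.

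Hmox1 rose in all 7 compounds and Fth1 in 6, while no compound raised Hamp2, which fell in 5. Against the route vehicle, 6 of the 10 genes rose and none fell in ANIT, where 14.0% of all genes tested rose and 14.2% fell. In MDA, 6 rose and 1 fell (17.4% and 16.4% of all genes), in APAP 2 rose and 2 fell (17.3% and 14.6%), and in TAA 3 rose and 2 fell (26.4% and 24.0%). In CCl4, 3 rose and 3 fell (18.0% and 15.6%), in GAL 1 rose and 4 fell (12.8% and 15.7%), and in ConA 5 rose and 1 fell (16.8% and 17.3%). The treated and vehicle ranges did not overlap for 4 of the 10 genes in ANIT (8.95% of all genes), 1 in MDA (4.76%), none in APAP (6.72%), 1 in TAA (20.1%), 6 in CCl4 (40.9%), 7 in GAL (52.3%) and 7 in ConA (39.7%). The 3 compounds with the most such genes are set against 2 vehicle mice each. The genes' median log2 change was 0.80 in ANIT, 0.60 in MDA, 0.30 in APAP, 0.27 in TAA, 0.24 in CCl4, -0.34 in GAL and 1.42 in ConA. The median of all genes tested lay between -0.01 and 0.10. Against all 17 vehicle livers the counts of higher and lower genes were 7 and 0 in ANIT (13.5% and 14.5% of all genes), 6 and 1 in MDA (17.2% and 17.1%), 3 and 2 in APAP (18.1% and 15.3%), and 4 and 2 in TAA (25.2% and 24.5%). They were 2 and 3 in CCl4 (26.2% and 27.2%), 1 and 5 in GAL (25.1% and 27.5%), and 6 and 2 in ConA (34.3% and 33.7%). ANIT, MDA, APAP and TAA share the 13 Ctrl mice, CCl4 and GAL share the 2 CIP mice, and all share the 17, so these counts are not independent of each other.

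**Figure D1:**
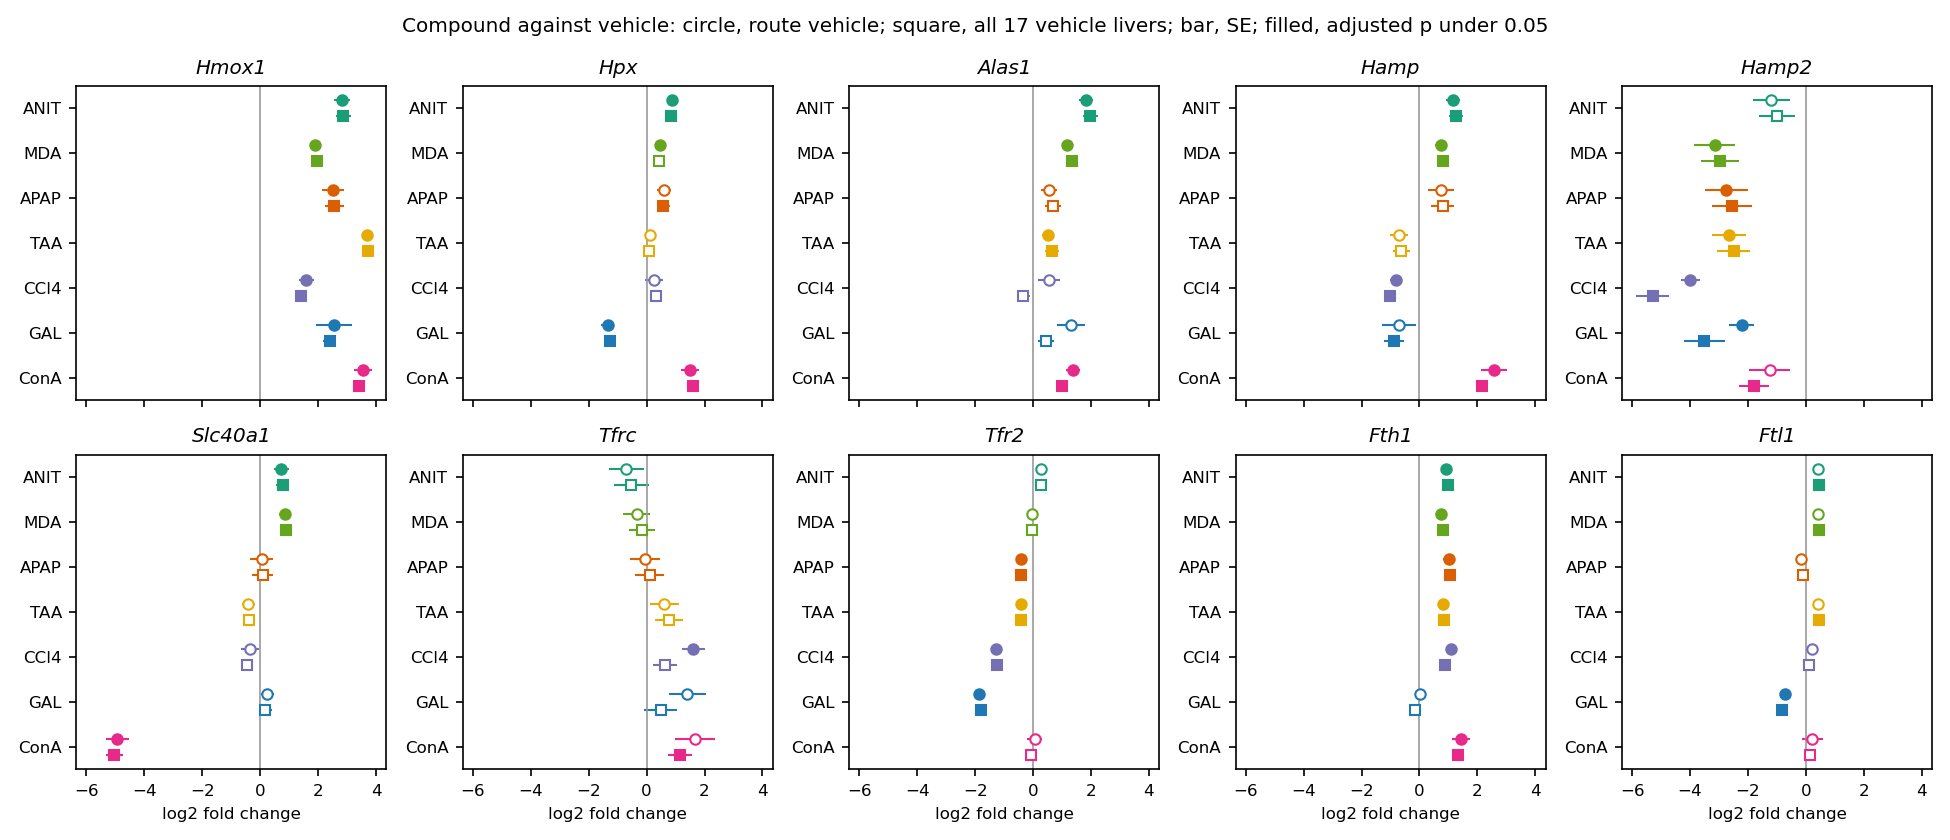
Log2 fold change (x axis) of each of the 10 genes in each compound (y axis), against the route vehicle (circles) and all 17 vehicle livers (squares), with SE as bars and filled symbols for an adjusted p under 0.05. Hmox1 lies right of 0 in all 7 compounds, and Slc40a1 in ConA lies at -4.93 and -5.04.

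Hmox1 (ENSMUSG00000005413.9) was at 21.53 to 53.03 CPM in the 17 vehicle livers. In TAA the 5 livers held 379.3, 349.5, 390.1, 565.7 and 507.6 CPM, and in ConA the lowest, median and highest of 7 livers were 297.9, 321.1 and 444.8. Every TAA and ConA liver was thus above every vehicle liver. The rise was 12.9-fold in TAA (log2 3.69 ± 0.16 SE, adjusted p = 2.76e-12) and 11.6-fold in ConA (log2 3.54 ± 0.31, adjusted p = 5.6e-05). The ANIT livers held 142.0, 137.5, 562.6 and 148.7 CPM, with mouse 3 far above the other 3. The rise in ANIT was 7.07-fold with all 4 mice (log2 2.82 ± 0.28, adjusted p = 2.33e-06) and 2.01 on the log2 scale without mouse 3.

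The other rises of Hmox1 were smaller or more scattered. MDA livers ran from 96.82 through a median of 125.8 to 172.9 CPM, a 3.74-fold rise (log2 1.90 ± 0.16, adjusted p = 2.19e-08). CCl4 livers ran from 60.71 through 91.39 to 124.7 CPM, a 3.00-fold rise (log2 1.59 ± 0.25, adjusted p = 0.0012). Both ranges lay above every vehicle liver, and those of MDA and CCl4 overlapped each other. APAP livers ran from 50.54 to 587.4 CPM, the highest being mouse 1, and the lowest lay within the control range. The APAP rise was 5.72-fold (log2 2.52 ± 0.38, adjusted p = 6.15e-05), and without mouse 1 it was 1.67 on the log2 scale (adjusted p = 0.000162). Within the number ranges it was 1.93 (adjusted p = 0.000706) for mice above 4 and 3.27 (adjusted p = 0.0602) for mice 1 to 4. GAL livers held 74.56, 281.7, 256.0 and 123.9 CPM, all above both CIP livers (33.13 and 27.62). The GAL rise was 5.82-fold (log2 2.54 ± 0.62, adjusted p = 0.0273) and lost its call without either CIP liver (adjusted p = 0.12 and 0.165) or without GAL mouse 4 (log2 2.28, adjusted p = 0.0532). Against all 17 vehicle livers it was 2.40 ± 0.22 on the log2 scale (adjusted p = 6.93e-09). Neighbouring compounds in the order of mean level, from TAA down to CCl4, overlapped in range at every step, and CCl4 did not overlap with Ctrl.

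**Figure D2:**
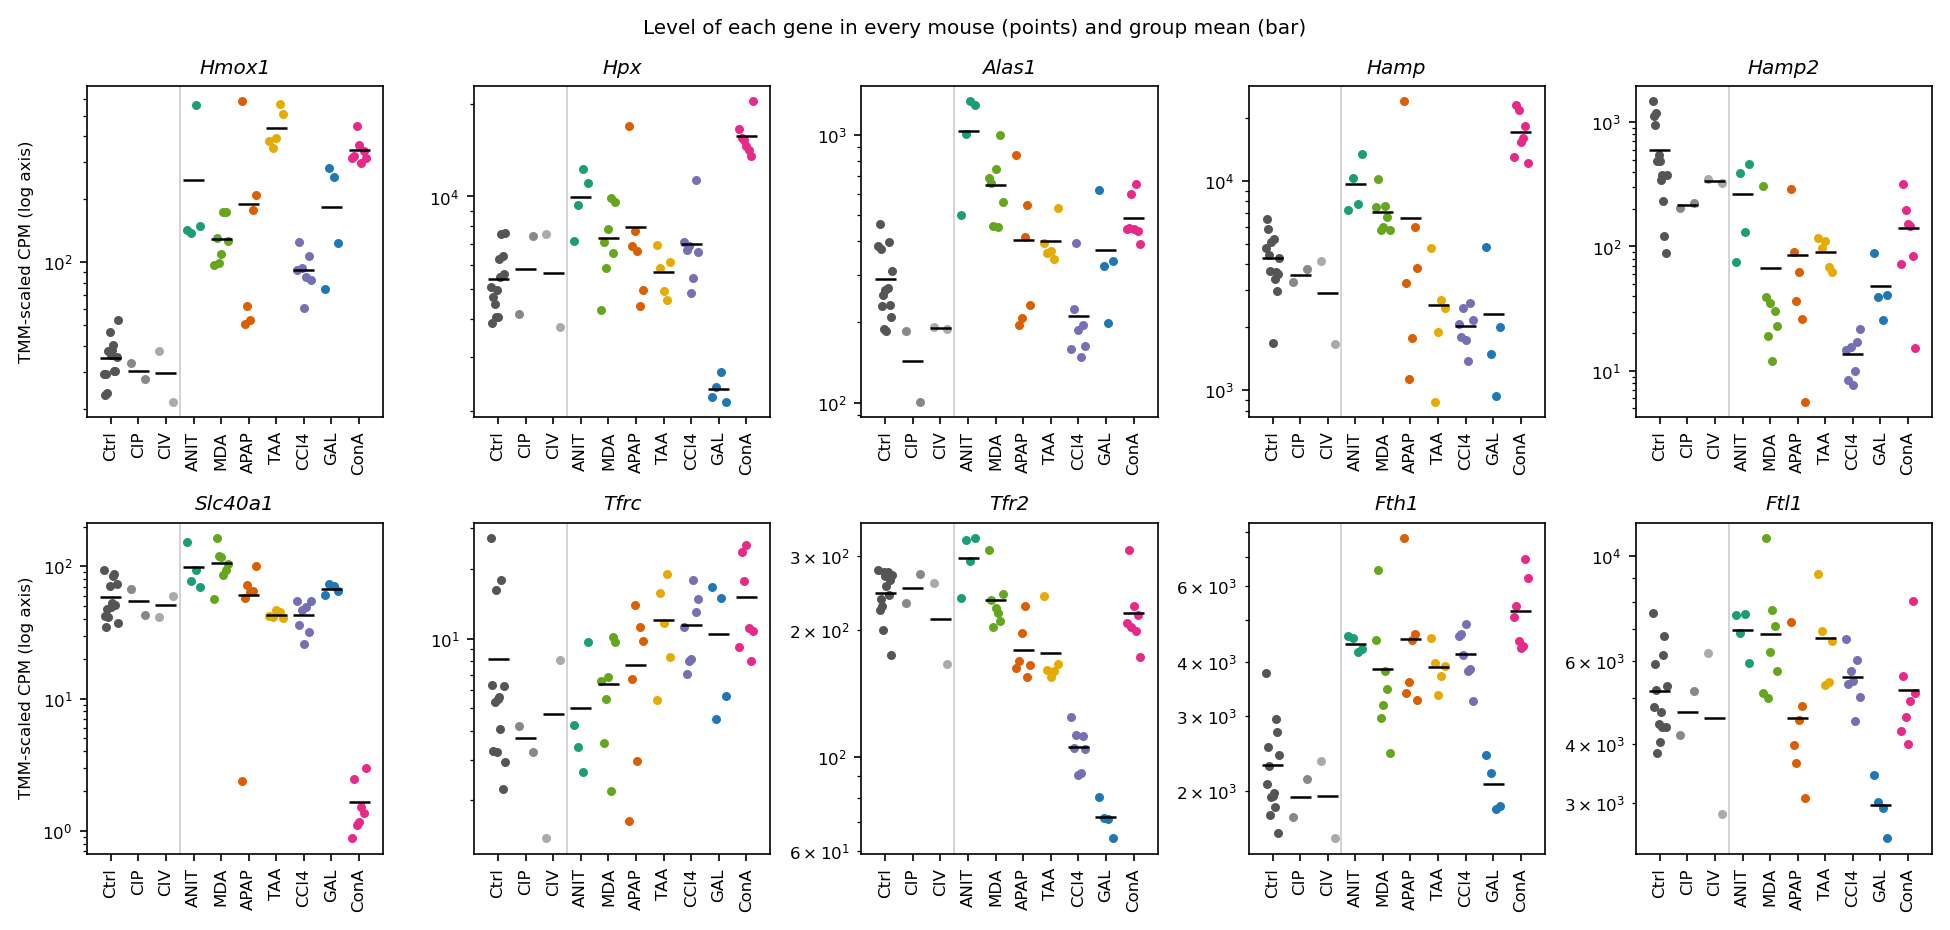
TMM-scaled CPM on a log axis (y) of each of the 10 genes in every mouse, by group (x), with points for mice and a bar for the group mean; vehicles stand left of the grey line. The Slc40a1 panel shows the 7 ConA livers at 0.875 to 2.98 CPM and 1 APAP liver at 2.39, below all other livers.

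Hpx (ENSMUSG00000030895.10), the plasma heme carrier, had the highest mean level of the 10 genes in vehicle livers, 5469 ± 1407 CPM (SD, n = 17; range 3751 to 7584). In ConA it ran from 13510 through a median of 15230 to 20430 CPM, above every vehicle liver. In GAL it was at 2232, 2403, 2681 and 2147 CPM, below every vehicle liver. Hpx rose 2.80-fold in ConA (log2 1.49 ± 0.32, adjusted p = 0.00532) and fell 2.56-fold in GAL (log2 -1.35 ± 0.24, adjusted p = 0.0106). Under library total scaling neither was called against the route vehicle (log2 0.87, adjusted p = 0.12, and log2 -0.57, adjusted p = 0.0706). The ConA rise kept its call in that scaling against all 17 vehicle livers (log2 0.98, adjusted p = 6.79e-05). ANIT livers held 7190, 9397, 12270 and 11060 CPM of Hpx, a 1.84-fold rise (log2 0.88 ± 0.18, adjusted p = 0.00147). In MDA the rise was 1.37-fold (adjusted p = 0.0445) and was not called against all vehicles (adjusted p = 0.0541). APAP mouse 1 held 16940 CPM against 4411 to 7707 in the other 5, and the APAP change of 0.61 (adjusted p = 0.0551) was not called, but 0.58 against all vehicles was (adjusted p = 0.048). Without mouse 1 these were 0.19 (adjusted p = 0.449) and 0.16 (adjusted p = 0.561), and the call against all vehicles was also lost without mouse 2 or mouse 4. Beside the fall in GAL, all 6 hepatocyte markers fell (median log2 -1.35), and the part of hepatocyte content in it was not tested.

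Of 10 other genes of heme breakdown and scavenging, 8 rose and none fell in MDA, and 6 rose and 1 fell in ANIT. The counts were 3 and 0 in APAP, 3 and 3 in TAA, 2 and 1 in CCl4, 1 and 3 in GAL, and 4 and 1 in ConA. Of all genes, 17.4% rose in MDA, 14.0% in ANIT, 17.3% in APAP, 26.4% in TAA, 18.0% in CCl4 and 16.8% in ConA, and 15.7% fell in GAL, so that the counts in TAA and CCl4 lay near the share over all genes. The list's median log2 change was 0.84 in MDA, 0.80 in ANIT, 0.31 in APAP, 0.11 in TAA, 0.08 in CCl4, -0.42 in GAL and -0.02 in ConA. With 1 mouse left out, GAL had 1 to 4 falls, and 2 rises remained in ConA without CIV mouse 7. Mafk, a small Maf protein that pairs with NRF2 and BACH1 on the Hmox1 enhancers, rose 10.5-fold in TAA (log2 3.39 ± 0.17, adjusted p = 8.89e-12), where livers held 43.56 to 63.86 CPM against 3.253 to 8.226 in vehicles. It also rose in ConA (log2 2.82), CCl4 (1.65), ANIT (1.24), MDA (1.01) and APAP, where the change was 2.18 with all 6 mice and 1.18 without mouse 1 (adjusted p = 0.000555). Mafg, another small Maf protein, rose 2.31-fold in MDA (log2 1.21 ± 0.16, adjusted p = 6.32e-06) and also in ANIT (0.89), and fell in TAA (-0.50), a call lost without TAA mouse 1 or 6. Blvra, a reductase of the biliverdin that heme oxygenase forms, fell in ANIT (log2 -0.40, adjusted p = 0.0105), a call lost without ANIT mouse 3 (adjusted p = 0.0584). In GAL its change of 1.57 was not called (adjusted p = 0.0509), while Nfe2l2, which encodes NRF2, rose 3.44-fold (log2 1.78 ± 0.22, adjusted p = 0.00368). Hp, the hemoglobin scavenger haptoglobin, was at 16730 to 22740 CPM in ConA against 2722 to 7851 in vehicles, a 4.11-fold rise (log2 2.04 ± 0.32, adjusted p = 0.00113; 2.64 without CIV mouse 7). It also rose 2.91-fold in ANIT, 1.92-fold in MDA and 2.13-fold in APAP, where the call was lost without mouse 1 (log2 0.54, adjusted p = 0.0707). It fell 6.64-fold in GAL (log2 -2.73 ± 0.32, adjusted p = 0.00326). Cd163, the macrophage receptor for haptoglobin-hemoglobin, fell 41.1-fold in ConA (log2 -5.36 ± 0.56, adjusted p = 0.000125), with livers at 0.059 to 0.419 CPM against 2.994 to 9.852 in vehicles. The log2 change was -4.53 without CIV mouse 8 and -5.97 without ConA mouse 12, and all 7 Kupffer cell markers fell in the same livers. Cd163 rose in MDA (log2 0.86, adjusted p = 0.00203), and also in APAP (1.19, adjusted p = 0.0122) and ANIT (0.71, adjusted p = 0.045), where the calls were lost without APAP mouse 8 or 11 and without ANIT mouse 1, 2 or 3. Lrp1, the hepatocyte receptor for hemopexin-heme, fell in TAA (log2 -0.98), CCl4 (-1.16) and GAL (-1.61), where the call was lost without either CIP mouse (adjusted p = 0.11 and 0.18) or without GAL mouse 4, 7 or 8.

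Alas1 (ENSMUSG00000032786.17), the first enzyme of heme synthesis, was highest in ANIT. Its 4 livers held 503.9, 1011, 1337 and 1292 CPM, and vehicle livers held 100.6 to 465.5. All 4 ANIT livers were above every vehicle liver, and mouse 1 was the lowest of them. The rise was 3.56-fold (log2 1.83 ± 0.23, adjusted p = 2.52e-05). MDA livers ran from 451.4 through 660.6 to 995.5 CPM and overlapped with Ctrl, a 2.27-fold rise (log2 1.18 ± 0.18, adjusted p = 5.03e-05). Between mice numbered 1 to 4 alone, the MDA change was 0.80 (adjusted p = 0.0713). ConA livers ran from 392.0 through 446.4 to 657.8 CPM against 191.0 and 187.7 in CIV, a 2.60-fold rise (log2 1.38 ± 0.25, adjusted p = 0.0025). That rise lost its call under library total scaling (log2 0.77, adjusted p = 0.101), and against all vehicles it was 1.00 ± 0.20 (adjusted p = 7.15e-05), or 0.39 under that scaling (adjusted p = 0.0825). In TAA, at 345.3 to 531.3 CPM, the 1.43-fold rise (adjusted p = 0.0347) lost its call without TAA mouse 1 or mouse 8. Alas1 was not called in APAP (log2 0.54, adjusted p = 0.15), CCl4 (0.54, adjusted p = 0.3) or GAL (1.30, adjusted p = 0.0881). In APAP, mouse 1 held 838.3 CPM against 195.7 to 547.4 in the other 5, and the change without it was 0.16 (adjusted p = 0.702). The CIP livers, at 184.6 and 100.6 CPM, lay below every Ctrl liver, and against all vehicles the changes were -0.34 in CCl4 (adjusted p = 0.217) and 0.44 in GAL (adjusted p = 0.194), neither called.

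Alas1 rose in 4 compounds. Of the other genes of heme synthesis and transport, more were called lower than higher in each of the 7, but in ANIT and MDA the list's median change lay near 0. Of 16 such genes, the numbers that rose and fell were 2 and 4 in ANIT, 4 and 6 in MDA, 2 and 9 in APAP, 2 and 11 in TAA, 2 and 7 in CCl4, 1 and 7 in GAL, and 0 and 10 in ConA. Of all genes tested, 14.0% rose and 14.2% fell in ANIT, 17.4% and 16.4% in MDA, 17.3% and 14.6% in APAP, 26.4% and 24.0% in TAA, 18.0% and 15.6% in CCl4, 12.8% and 15.7% in GAL, and 16.8% and 17.3% in ConA. The list's median log2 change was lowest in GAL (-1.26) and ConA (-1.15), and it was 0.04 in ANIT and -0.07 in MDA. Hepatocyte markers were lower in 6 of 6 in GAL (median log2 -1.35), 5 of 6 in CCl4 (-1.23) and 1 of 6 in ConA (-0.07). They were lower in 2 of 6 in TAA (-0.24) and APAP (-0.20), 3 of 6 in MDA (-0.17) and 1 of 6 in ANIT (-0.12). In TAA, APAP and MDA 1 marker was higher. The part of hepatocyte content in these falls was not tested. The falls in GAL numbered 1 without CIP mouse 7 and 11 without GAL mouse 2, and those in ConA 5 without CIV mouse 7. Alas2, the form of the first enzyme known from erythroid cells, was at 35.18 to 74.02 CPM in vehicle livers and fell in 6 compounds, among them CCl4 at 10.84 to 28.66 CPM (3.07-fold, log2 -1.62 ± 0.27, adjusted p = 0.00149). In ConA its change of -1.12 was not called (adjusted p = 0.0616). The erythroid markers rose in APAP (4 of 4 tested), TAA (4 of 4) and ConA (5 of 5), and Alas2 was lower in the first 2 of these. The additional marker in ConA passed the filter only there, through livers where it was high, so its rise carries no weight. Abcb10, a mitochondrial transporter linked to heme synthesis, fell in all 7 compounds, most in ConA (4.77-fold, log2 -2.25 ± 0.25, adjusted p = 0.000153) and TAA (4.53-fold). Abcb6, a porphyrin transporter, fell 5.57-fold in GAL (adjusted p = 0.0114). In GAL, Abcb6 and Abcb10 lost their calls without either CIP mouse (adjusted p = 0.062 to 0.0862). Slc48a1, which moves heme out of endolysosomes, rose in 6 compounds, by 3.35-fold in CCl4 (log2 1.74 ± 0.18, adjusted p = 9.21e-05), with livers at 111.5 to 182.1 CPM against 26.85 to 61.04 in vehicles. In ConA its change was 0.66 (adjusted p = 0.325). Flvcr1, the heme exporter of the plasma membrane, rose in MDA, APAP (2.03-fold) and TAA (2.80-fold), and in ANIT, where the call was lost without mouse 1, 2 or 3 (adjusted p = 0.0713, 0.066 and 0.2). Its levels were low, with means of 0.984 CPM in Ctrl, 1.95 in APAP and 2.68 in TAA.

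Hamp (ENSMUSG00000050440.9) moved in both directions. Vehicle livers held 1662 to 6573 CPM. ConA livers ran from 12190 through a median of 15990 to 23180 CPM, and all 7 were above every vehicle liver. The rise was 5.94-fold (log2 2.57 ± 0.44, adjusted p = 0.00176) against CIV, whose 2 livers were 4154 and 1662 CPM, and 3.38 on the log2 scale without CIV mouse 7. Against all vehicles it was 4.51-fold (log2 2.17 ± 0.19, adjusted p = 3.2e-10), and 1.53 under library total scaling. ANIT livers held 7267, 10330, 7752 and 13440 CPM, again above every vehicle liver, a 2.25-fold rise (log2 1.17 ± 0.24, adjusted p = 0.00152). Between mice numbered 1 to 4 it was 0.82 (adjusted p = 0.051). MDA livers ran from 5830 through 6729 to 10250 CPM, overlapping with Ctrl, a 1.67-fold rise (log2 0.74 ± 0.19, adjusted p = 0.00498), and the change was 0.44 (adjusted p = 0.328) between mice 1 to 4.

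Hamp fell in CCl4, where livers ran from 1380 through 2067 to 2615 CPM, all below the 2 CIP livers at 3297 and 3813. The fall was 1.77-fold (log2 -0.82 ± 0.20, adjusted p = 0.0111) against CIP and -1.02 ± 0.21 (adjusted p = 0.000211) against all vehicles. It lost its call without CIP mouse 8 (log2 -0.70, adjusted p = 0.117) and under library total scaling (log2 -0.38, adjusted p = 0.16). GAL livers held 4842, 1487, 940.3 and 2014 CPM and overlapped with CIP. GAL was not called against CIP (log2 -0.70, adjusted p = 0.389) and was lower against all vehicles (log2 -0.87 ± 0.34, adjusted p = 0.0372), a direction that turned to 0.02 under library total scaling. APAP mouse 1 held 24120 CPM, the highest Hamp of all 57 livers, against 1129 to 6061 in the other 5. The APAP change of 0.73 (adjusted p = 0.23) was -0.40 without that mouse (adjusted p = 0.383). In TAA, mouse 1 held 4779 CPM and the other 4 held 879.5 to 2707. The TAA change was -0.69 (adjusted p = 0.0717), and -1.09 (adjusted p = 0.00585) without mouse 1.

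Hamp2 (ENSMUSG00000056978.9) was called higher in no compound, those that raised Hamp included, and was lower in CCl4, where Hamp fell. It was at 88.0 to 1476 CPM in vehicle livers, and within Ctrl the mice numbered 1 to 4 held 945.4 to 1476 against 88.0 to 541.5 in the others (log2 1.79 ± 0.37, adjusted p = 0.0231). Leaving out Ctrl mouse 1, 2 or 4 ended that call. CCl4 livers ran from 7.751 through 14.59 to 21.89 CPM, all below every vehicle liver. The fall was 15.9-fold against CIP (log2 -3.99 ± 0.32, adjusted p = 2.45e-05) and 39.1-fold against all vehicles (log2 -5.29 ± 0.57, adjusted p = 1.66e-08). In MDA, mouse 1 held 307.7 CPM and the other 6 held 12.01 to 39.25. The MDA fall was 8.89-fold (log2 -3.15 ± 0.70, adjusted p = 0.00152), and -4.49 on the log2 scale without mouse 1. In APAP, mouse 1 held 287.5 CPM and the others 5.621 to 90.65. The fall was 6.69-fold (log2 -2.74 ± 0.73, adjusted p = 0.00724), and -3.75 without mouse 1 (adjusted p = 0.000769). TAA livers, at 62.71 to 117.5 CPM, gave a 6.34-fold fall (adjusted p = 0.000738), which was -3.41 between mice 1 to 4 and -2.07 between mice above 4.

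GAL livers held 88.52, 39.41, 25.59 and 40.53 CPM of Hamp2, all below the CIP livers at 204.9 and 222.9. The fall was 4.67-fold (log2 -2.22 ± 0.43, adjusted p = 0.0133), and it lost its call without either CIP liver and under library total scaling (log2 -1.42, adjusted p = 0.0528). ANIT (75.45, 393.0, 131.4 and 457.3 CPM) was not called (log2 -1.19, adjusted p = 0.186), but it was lower than Ctrl between mice numbered 1 to 4 (log2 -2.18, adjusted p = 0.0241). ConA livers ran from 15.34 through 147.2 to 319.3 CPM and were not called against CIV (log2 -1.24, adjusted p = 0.2). They were lower than all vehicles (3.46-fold, log2 -1.79 ± 0.53, adjusted p = 0.00433). Against all vehicles, Hamp was thus higher and Hamp2 lower in ConA, while against CIV only Hamp was called. The pooled vehicles include Ctrl mice 1 to 4, which held 945.4 to 1476 CPM of Hamp2.

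The share of Hamp2 in the sum of both transcripts was 2.40% to 23.6% in vehicle livers. It was 0.157% to 3.92% in MDA, 0.147% to 3.37% in APAP, 0.445% to 0.996% in CCl4 and 0.126% to 1.36% in ConA. It was 1.03% to 3.67% in ANIT, 1.80% to 2.65% in GAL and 2.40% to 9.90% in TAA. The CCl4 and ConA livers did not overlap with any vehicle liver, and those of the other compounds did. This share was chosen after its values were seen and was not tested. The transcripts are 94.6% identical over 410 aligned bases, so reads can be shared between them. Of the 31-base words of Hamp, 252 of 380 (66.3%) are absent from Hamp2. With both counted as 1 gene, the Hamp calls of ANIT, MDA, CCl4 and ConA against the route vehicle remained, and TAA was called lower (log2 -0.83, adjusted p = 0.0324).

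**Figure D3:**
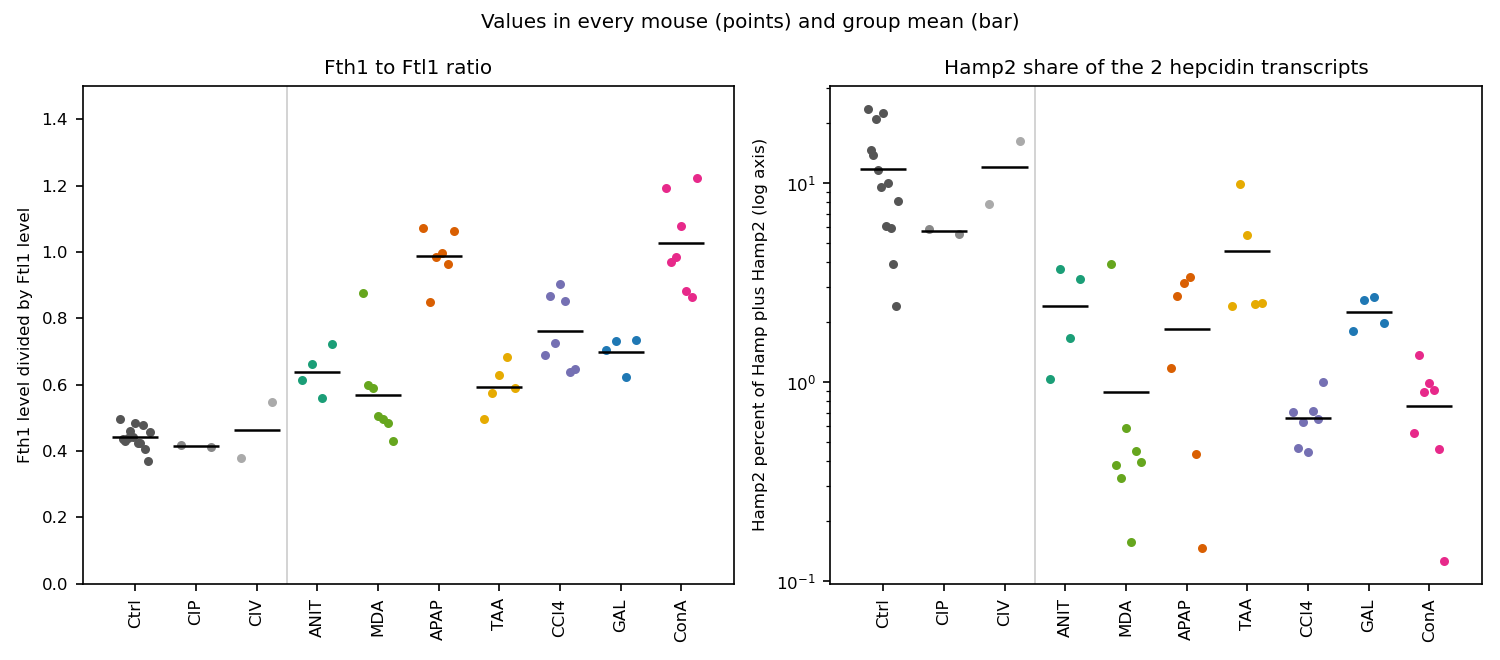
Left, the Fth1 level divided by the Ftl1 level (y axis from 0), and right, the Hamp2 percent of Hamp plus Hamp2 (log axis), in every mouse by group (x axis), with a bar for the group mean. APAP and ConA have the highest mean ferritin ratios, with livers at 0.850 to 1.07 and 0.864 to 1.22 that overlap with those of CCl4 and 1 MDA liver, and CCl4 and ConA livers lie below all vehicle livers in the right panel.

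Of 18 tested genes of the BMP and SMAD arm of hepcidin control, the numbers that rose and fell were 5 and 1 in ANIT, 6 and 1 in MDA, 4 and 3 in APAP, 6 and 5 in TAA, 3 and 4 in CCl4, 5 and 2 in GAL, and 4 and 2 in ConA. Over all genes the shares that rose and fell were 14.0% and 14.2% in ANIT, 17.4% and 16.4% in MDA, 17.3% and 14.6% in APAP, 26.4% and 24.0% in TAA, 18.0% and 15.6% in CCl4, 12.8% and 15.7% in GAL, and 16.8% and 17.3% in ConA. The counts in APAP, TAA, CCl4 and ConA lay near these shares, and the arm's median log2 change ran from 0.10 in ConA to 0.63 in GAL. The rises in GAL numbered 1 to 7 when any 1 mouse was left out. Id1, a standard readout of BMP signalling, rose in all 7 compounds, from 1.31 on the log2 scale in ANIT (adjusted p = 0.00107) to 3.49 ± 0.25 in GAL (adjusted p = 0.00208), though its CCl4 rise of 1.69 lost its call without CIP mouse 7 (log2 1.47, adjusted p = 0.0724). GAL livers held 37.67 to 55.53 CPM of Id1 and vehicle livers 2.372 to 10.41. Hamp was not called higher in GAL, TAA, APAP or CCl4, where Id1 rose. Tmprss6, a hepatocyte protease that cleaves hemojuvelin and lowers hepcidin, fell in all 7 compounds, from -0.92 in APAP to -1.85 ± 0.16 in GAL (adjusted p = 0.00217), and its ConA call was lost without CIV mouse 7 (adjusted p = 0.0545). Fgl1, a secreted hepatocyte protein that blocks BMP ligands, rose 2.93-fold in ANIT (log2 1.55 ± 0.21, adjusted p = 3.75e-05), in MDA (1.22) and in APAP (1.32). Its rises in ConA (1.53) and TAA (0.50) and its fall in GAL (-0.95) lost their calls in some fits without 1 mouse. Hjv, which encodes hemojuvelin, the BMP co-receptor, was at 42.67 to 61.32 CPM in vehicle livers. It fell 6.98-fold in TAA (5.467 to 9.406 CPM, log2 -2.80 ± 0.13, adjusted p = 6.46e-12), 5.55-fold in ConA (7.081 to 12.39 CPM, log2 -2.47 ± 0.24, adjusted p = 8.23e-05), and also in CCl4 (-1.34) and APAP (-0.97). It rose in ANIT (0.40, adjusted p = 0.0081; 0.29 and adjusted p = 0.0507 without mouse 1) and MDA (0.50, adjusted p = 0.000115). In ConA, therefore, Hjv was low in livers where Hamp was high. Bmp6, the BMP ligand that liver endothelial cells make in response to iron, rose 4.24-fold in CCl4 (6.523 to 10.9 CPM against 1.069 to 2.292 in vehicles, log2 2.09 ± 0.24, adjusted p = 0.000172), where Hamp fell.

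Of 10 tested genes of the IL-6 and STAT3 arm, 7 rose and none fell in ConA (leaving out Il6, described below), and 7 rose and none fell in ANIT. The counts were 6 and 0 in MDA, 7 and 1 in APAP, 5 and 1 in TAA, 3 and 2 in CCl4, and 0 and 5 in GAL. Of all genes, 16.8% rose in ConA, 14.0% in ANIT, 17.4% in MDA, 17.3% in APAP, 26.4% in TAA and 18.0% in CCl4, and 15.7% fell in GAL. The arm's median log2 change was 1.12 in ANIT, 0.88 in APAP, 0.73 in MDA, 0.38 in TAA, 0.03 in CCl4 and -0.71 in GAL. Without APAP mouse 1 the APAP counts were 2 and 1, and leaving out 1 mouse gave 2 to 5 falls in GAL. Socs3, which STAT3 induces, was at 96.08 to 150.7 CPM in ConA and 39.63 to 112.9 in ANIT, against 1.966 to 28.38 in vehicles. It rose in TAA too (49.46 to 82.22 CPM, log2 3.29 ± 0.49, adjusted p = 1.49e-05), where Hamp was not called higher. In APAP its change was 3.72, and 2.24 without mouse 1 (adjusted p = 0.00461). Il6 passed the filter on low counts only in ConA, where it was at 2.95 to 15.49 CPM against 0 to 0.533 in vehicle livers, and 0 and 0.18 in the 2 CIV livers. Since it entered the test only through the group where it was high, no fold or p is given for it and it is not counted above. APAP mouse 1 held 7.72 CPM of Il6 and 318.5 of Socs3, against at most 0.684 and 60.46 in the other APAP livers. The acute-phase gene Saa2 rose 70.5-fold in ConA (log2 6.14 ± 0.54, adjusted p = 5.31e-05) and 17.4-fold in ANIT, and fell 12.0-fold in GAL (log2 -3.59 ± 0.55, adjusted p = 0.00652). These were 6.95 on the log2 scale without CIV mouse 7, 3.50 without ANIT mouse 3 and -2.88 without CIP mouse 8, respectively. In CCl4 it rose 5.94-fold, or 3.34 on the log2 scale without CIP mouse 8. Saa1, its neighbour in the acute-phase family, had the largest rise of the arm in MDA (7.00-fold, log2 2.81 ± 0.63, adjusted p = 0.00157), and 2.03 on the log2 scale without mouse 12. Crp, the gene of C-reactive protein, fell in TAA (log2 -1.21, adjusted p = 5.77e-05) and APAP (-0.78, adjusted p = 0.00408). Its falls in GAL (-3.50) and CCl4 (-0.93) and its rises in ConA (0.98) and ANIT (0.53) lost their calls in some fits without 1 mouse. The same held for Il6ra, the IL-6 receptor, which fell in CCl4 (-1.01, adjusted p = 0.0123; 0.124 without CIP mouse 7) and rose in ANIT (0.88) and MDA (0.79).

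**Figure D4:**
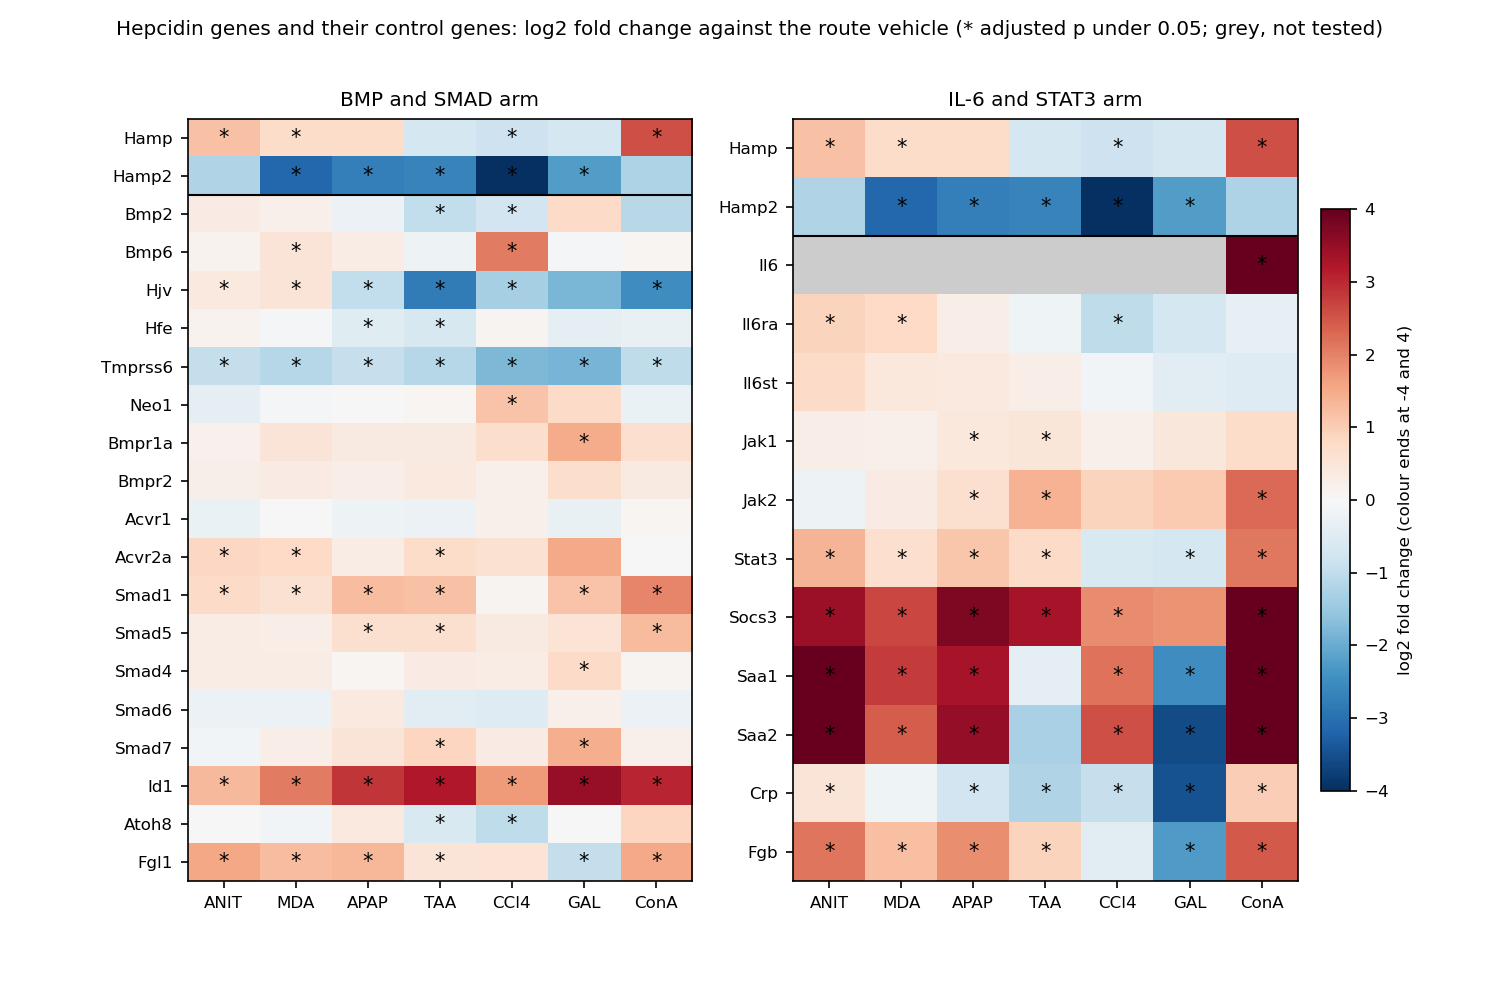
Log2 fold change against the route vehicle (colour, ending at -4 and 4) of Hamp, Hamp2 and the tested genes of the BMP and SMAD arm (left) and the IL-6 and STAT3 arm (right), by compound (x axis), with a star for an adjusted p under 0.05 and grey where not tested. Id1 is starred in red and Tmprss6 in blue in all 7 compounds, while Hamp is starred in red in ANIT, MDA and ConA and in blue in CCl4.

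Slc40a1 (ENSMUSG00000025993.11), the ferroportin gene, had the largest change of the 10 genes against the route vehicle. Its vehicle livers held 34.68 to 94.17 CPM. ConA livers ran from 0.875 through a median of 1.36 to 2.98 CPM, all far below every vehicle liver. The fall was 30.5-fold (log2 -4.93 ± 0.39, adjusted p = 3.59e-05) against CIV and 32.9-fold (log2 -5.04 ± 0.29, adjusted p = 7.23e-14) against all vehicles. It was called in every alternative fit. APAP mouse 1 held 2.39 CPM, within the ConA range, and the other 5 APAP livers held 57.97 to 101.1. APAP was not called with that mouse (log2 0.05, adjusted p = 0.938) or without it (log2 0.30, adjusted p = 0.35).

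Kupffer cell markers fell with Slc40a1 in ConA, where all 7 were lower (median log2 -2.95). The 7 ConA livers summed to 33.39 to 58.32 CPM of these markers, and no marker was at 0 in all of them. Of 5 sinusoidal endothelial markers, 3 were lower there and 1, Lyve1, was higher. In APAP mouse 1 the Kupffer cell sum was 377.2 CPM, within the vehicle range of 181.2 to 505.7, and Slc40a1 was within the ConA range. Its Hamp level of 24120 CPM was above that of every ConA liver. This is 1 liver of another compound and does not bear on the 7 ConA livers. The parts of Kupffer cell content and of Hamp in the low Slc40a1 levels were not tested.

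**Figure D5:**
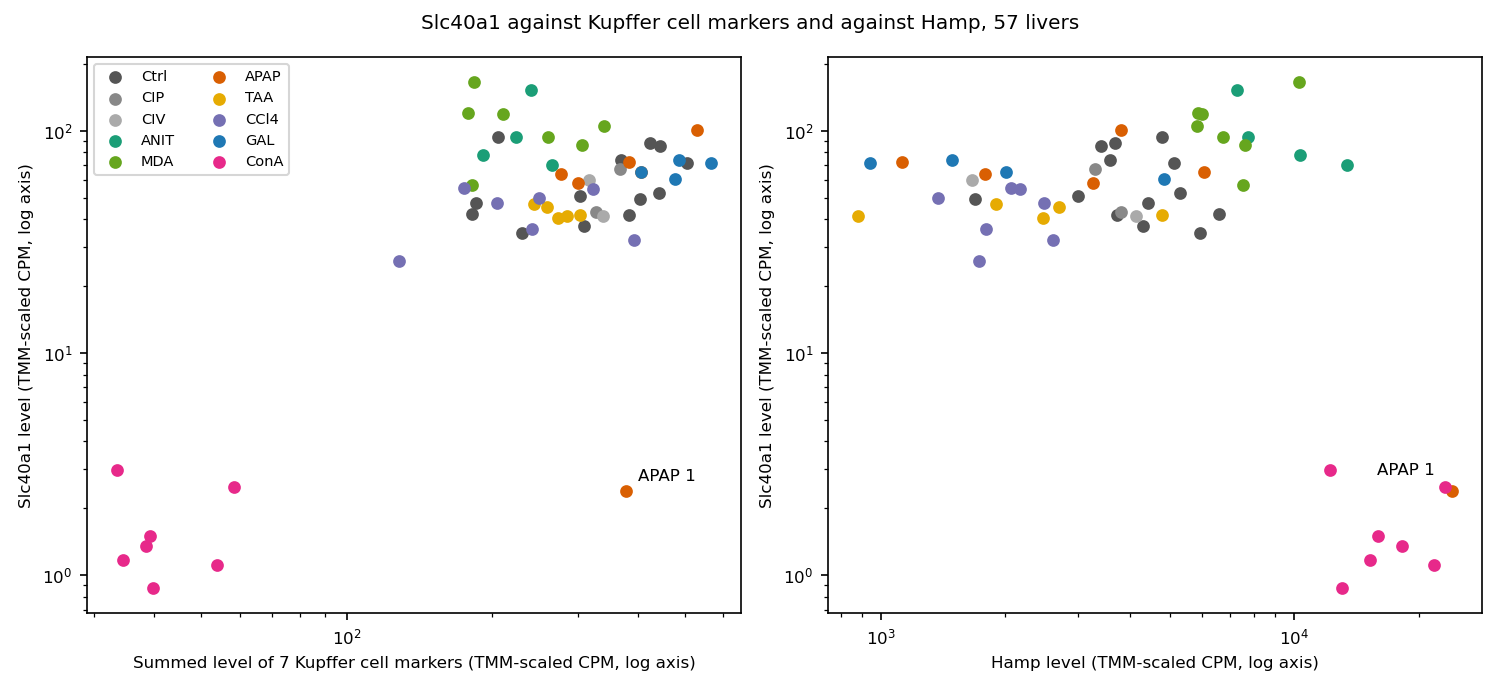
Slc40a1 level (y axis, log) against the summed level of 7 Kupffer cell markers (left, log axis) and against the Hamp level (right, log axis) in 57 livers, coloured by group. APAP mouse 1 lies with the ConA livers in Slc40a1 and in Hamp but at 377.2 CPM, within the vehicle range, in the Kupffer cell sum.

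Slc40a1 was higher in ANIT and MDA. ANIT livers held 152.3, 77.78, 93.36 and 70.25 CPM, and MDA livers ran from 56.73 through 104.8 to 165.2. Both overlapped with Ctrl. The rise was 1.66-fold in ANIT (log2 0.73 ± 0.25, adjusted p = 0.0387) and 1.81-fold in MDA (log2 0.86 ± 0.21, adjusted p = 0.0029). The ANIT call was lost without mouse 1 (log2 0.44, adjusted p = 0.239), and the MDA call was lost between mice 1 to 4 (log2 1.08, adjusted p = 0.0982) and between mice above 4 (log2 0.66, adjusted p = 0.066). TAA (40.36 to 46.82 CPM), CCl4 (25.92 to 55.17) and GAL (60.96 to 74.16) were not called. Under library total scaling Slc40a1 was called higher in GAL (log2 0.98, adjusted p = 0.0303).

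Tfrc (ENSMUSG00000022797.17), the receptor for transferrin-bound iron, had the lowest mean level of the 10 genes in vehicle livers, 7.25 ± 6.88 CPM (SD, n = 17; range 1.37 to 27.36). CCl4 livers ran from 7.015 through 11.18 to 17.86 CPM, above both CIP livers (4.20 and 3.23) but within the range of Ctrl. The rise was 3.04-fold against CIP (log2 1.61 ± 0.40, adjusted p = 0.0132) and was not called against all vehicles (log2 0.64, adjusted p = 0.208) or without either CIP liver (adjusted p = 0.0606 and 0.118). ConA livers ran from 8.007 through 11.15 to 25.3 CPM. They were not called against CIV (log2 1.67, adjusted p = 0.0829) and were 2.23-fold higher than all vehicles (log2 1.16 ± 0.42, adjusted p = 0.0178). Leaving out CIV mouse 8 gave 3.46 (adjusted p = 0.0163), and library total scaling gave 0.62 (adjusted p = 0.148) against all vehicles. Erythroid precursors are rich in this receptor, and the erythroid sums of ConA livers were above those of all vehicles. The part of such cells was not tested. ANIT, MDA, APAP and TAA were not called.

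Tfr2 (ENSMUSG00000029716.14), the hepatocyte sensor, fell in 4 compounds. GAL livers held 80.52, 71.87, 71.43 and 64.12 CPM, and CCl4 livers ran from 90.89 through 105.1 to 124.3. Vehicle livers held 166.4 to 278.7, so neither compound overlapped with any vehicle. The fall was 3.67-fold in GAL (log2 -1.88 ± 0.15, adjusted p = 0.00208) and 2.41-fold in CCl4 (log2 -1.27 ± 0.13, adjusted p = 0.000104). In these compounds most hepatocyte markers fell, 6 of 6 in GAL and 5 of 6 in CCl4 (median log2 -1.35 and -1.23). Of the 6 markers, 3 also fell in MDA, 2 each in APAP and TAA, and 1 each in ANIT and ConA. The medians there ran from -0.24 to -0.07, and 1 marker rose in each of MDA, APAP and TAA. The part of hepatocyte content in the Tfr2 falls was not tested. Under library total scaling both falls were smaller and still called (log2 -1.10, adjusted p = 0.00776, and log2 -0.83, adjusted p = 0.000488). APAP (155.2 to 229.0 CPM) and TAA gave falls of 1.34-fold (adjusted p = 0.00592) and 1.35-fold (adjusted p = 0.0087). In TAA, mouse 1 held 241.4 CPM and the other 4 held 155.4 to 166.0. The APAP fall was not called under library total scaling (log2 -0.27, adjusted p = 0.217) or within either number range. ANIT, MDA and ConA were not called.

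Ferritin transcripts changed unequally. Fth1 (ENSMUSG00000024661.8), the heavy chain that oxidises iron, was at 1552 to 3760 CPM in vehicle livers. ConA livers ran from 4313 through 5074 to 6934 CPM, and ANIT livers from 4226 to 4603, all above every vehicle liver. APAP livers held 7785 in mouse 1 and 3266 to 4632 in the other 5. Fth1 rose 2.73-fold in ConA (log2 1.45 ± 0.31, adjusted p = 0.00506), 2.13-fold in CCl4 (log2 1.09 ± 0.18, adjusted p = 0.00135), 2.03-fold in APAP (log2 1.02 ± 0.20, adjusted p = 0.000522), 1.91-fold in ANIT (adjusted p = 0.000492), 1.75-fold in TAA (adjusted p = 0.000458) and 1.68-fold in MDA (adjusted p = 0.00233). APAP without mouse 1 was 0.76 (adjusted p = 0.00179). GAL livers, at 2424, 2203, 1817 and 1852 CPM, were not called (log2 0.03, adjusted p = 0.906) and were called higher under library total scaling (log2 0.81, adjusted p = 0.0233). The ConA call was lost in that scaling against CIV (log2 0.83, adjusted p = 0.118) and kept against all vehicles (log2 0.74, adjusted p = 0.000137). Between mice 1 to 4 alone, APAP (0.98), MDA (0.68) and TAA (0.73) were not called (adjusted p = 0.152, 0.191 and 0.128).

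Ftl1 (ENSMUSG00000050708.17), the light chain that helps mineralise iron, was at 2844 to 7592 CPM in vehicle livers. No compound raised it against its route vehicle. ANIT, MDA and TAA gave 0.42 (adjusted p = 0.0578), 0.41 (0.0529) and 0.42 (0.0532), and each was just called against all vehicles (adjusted p = 0.0489, 0.0306 and 0.034). ConA livers, at 4003 to 8022 CPM, gave 0.22 (adjusted p = 0.668), which turned to -0.43 under library total scaling. GAL livers held 3437, 3013, 2918 and 2519 CPM, below both CIP livers, a 1.65-fold fall (log2 -0.72 ± 0.16, adjusted p = 0.0218). That fall turned to 0.06 under library total scaling, and was lost without CIP mouse 8 or any 1 of GAL mice 4, 7 and 8. The ratio of Fth1 to Ftl1 was 0.368 to 0.546 in vehicle livers. It was 0.864 to 1.22 in ConA, 0.850 to 1.07 in APAP, 0.639 to 0.902 in CCl4, 0.623 to 0.735 in GAL and 0.560 to 0.722 in ANIT, all above every vehicle liver. TAA (0.495 to 0.684) and MDA (0.428 to 0.875) overlapped with vehicles. This ratio does not depend on the scaling between libraries, was chosen after its values were seen, and was not tested. Both ferritin genes have many processed copies in the genome. Summing each gene with its named copies ended no call of either gene against the route vehicle.

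Around these genes, 6 of 13 tested genes of iron uptake, export and transport rose and 1 fell in ANIT, 7 and 1 of 13 in MDA, 5 and 1 of 12 in APAP, 5 and 2 of 12 in TAA, 3 and 1 of 13 in CCl4, 0 and 5 of 13 in GAL, and 6 and 1 of 12 in ConA. Of all genes, 14.0%, 17.4%, 17.3%, 26.4%, 18.0%, 12.8% and 16.8% rose, and 14.2%, 16.4%, 14.6%, 24.0%, 15.6%, 15.7% and 17.3% fell, in the same order, and the list's median log2 change ran from -0.70 in GAL to 1.47 in ConA. With 1 mouse left out, GAL had 1 to 5 falls, and 1 rise and no fall remained in CCl4 without either CIP mouse. Lcn2, which binds iron-laden bacterial siderophores and is also a neutrophil granule gene, rose in 6 compounds, by 228-fold in ConA (log2 7.84 ± 0.41, adjusted p = 6.79e-06). APAP livers ran from 236.7 to 20590 CPM, the highest being mouse 1, and the APAP rise was 46.8-fold with all 6 mice (log2 5.55 ± 0.95) and 19.2-fold without that mouse (log2 4.26, adjusted p = 0.00115). The rise in CCl4 was 2.81 on the log2 scale, and 3.46 without CIP mouse 8. Lcn2 fell 4.58-fold in GAL (log2 -2.19 ± 0.62, adjusted p = 0.0407), a call lost without either CIP mouse (adjusted p = 0.084 and 0.246) or without GAL mouse 4, 7 or 8, and the change was -2.87 without GAL mouse 2. Neutrophil markers rose in 5 of 5 tested in TAA (median log2 5.41), 3 of 4 in ConA (4.83) and APAP (3.02), 3 of 5 in CCl4 (3.84), 2 of 4 in MDA (2.24), 1 of 4 in ANIT (1.46) and 4 of 4 in GAL (2.39). In TAA 5 markers passed the filter, where the other gavage compounds, with the same Ctrl mice, had 4. The additional marker entered through the TAA livers where it was high, so its rise carries no weight. The 5 markers summed to 2.168 to 59.76 CPM in vehicle livers, 158.1 to 837.5 in TAA, 125.9 to 286.5 in ConA and 25.4 to 40.27 in GAL. The GAL sums lay above both CIP livers (5.036 and 5.304) but within the range of all vehicles, against which 1 of 4 markers was higher (median log2 1.41). The part of neutrophils in the Lcn2 changes was not tested. Slc39a14, the hepatocyte importer of iron not bound to transferrin, rose in ConA (log2 3.38, adjusted p = 0.00026), ANIT (1.92) and TAA (1.56). Single mice carried much of its change in the other gavage compounds. In APAP, mouse 1 held 1886 CPM where the group median was 174.1, and the change was 2.51 with it and 0.97 without it (adjusted p = 0.00712). In MDA it was 0.70, a call lost without mouse 1 (log2 0.38, adjusted p = 0.0722). Slc39a8, a related metal importer, fell in TAA (log2 -1.08, adjusted p = 0.000149), MDA (-0.46, adjusted p = 0.0201), ANIT (-0.71, adjusted p = 0.0225) and GAL (-1.21, adjusted p = 0.0263). The ANIT call was lost without mouse 2 or 3, and the GAL call without CIP mouse 7 or GAL mouse 4, 7 or 8. Steap3, the endosomal reductase that works with Tfrc, fell in TAA (3.76-fold, log2 -1.91 ± 0.17, adjusted p = 3.54e-08), ConA (3.06-fold), GAL and APAP. Its call was lost in ConA without CIV mouse 7 (log2 -1.10, adjusted p = 0.0994), in GAL without either CIP mouse or GAL mouse 4 or 8, and in APAP without mouse 1, 8 or 11. Trf, which encodes transferrin, fell in GAL (log2 -1.66, adjusted p = 0.00217) and CCl4 (-0.46, adjusted p = 0.0243), where the call was lost without either CIP mouse (adjusted p = 0.0557 and 0.177).

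Of 16 tested genes of iron sensing, storage and iron-sulphur assembly, the numbers that rose and fell were 3 and 1 in ANIT, 1 and 3 in MDA, 1 and 4 in APAP, 3 and 4 in TAA, 2 and 3 in CCl4, 0 and 5 in GAL, and 3 and 4 in ConA. Of all genes, 12.8% (GAL) to 26.4% (TAA) rose and 14.2% (ANIT) to 24.0% (TAA) fell, and the counts in TAA, CCl4 and ConA lay near the shares of those compounds given above. The list's median log2 change ran from -0.25 in ConA to 0.15 in ANIT. Leaving out 1 mouse gave 1 to 5 falls in GAL, no rise in CCl4 without either CIP mouse, and 1 rise in ConA without either CIV mouse and in ANIT without mouse 3. Aco1 encodes iron regulatory protein 1, which binds the hairpins printed above for Fth1, Ftl1, Slc40a1 and Tfrc. It fell in all 7 compounds, from -0.66 ± 0.10 in ANIT (adjusted p = 0.000149) to -2.0 ± 0.16 in ConA (adjusted p = 3.89e-05). In GAL its fall lost its call without either CIP mouse (adjusted p = 0.093 and 0.084) or GAL mouse 8. Ireb2, which encodes the other such protein, was called in none of the 7, with changes from -0.71 in ConA (adjusted p = 0.295) to 0.87 in GAL (adjusted p = 0.12). Cisd1, an iron-sulphur protein of the outer mitochondrial membrane, fell in 6 compounds, most in CCl4 (3.24-fold, log2 -1.69 ± 0.14, adjusted p = 3.32e-05). Fdx2, a mitochondrial ferredoxin of iron-sulphur assembly, rose in TAA (log2 0.83), APAP (0.59) and CCl4 (0.56), where the call was lost without either CIP mouse. Pcbp2, an iron chaperone, rose in ANIT (0.58), and in ConA (0.66) and TAA (0.36) with calls lost in some fits without 1 mouse. Ncoa4, which delivers ferritin to lysosomes, rose in MDA (0.59, adjusted p = 0.01). Isca1, a late iron-sulphur assembly protein, rose in TAA (0.70, adjusted p = 2.87e-06) and ConA (1.15, adjusted p = 0.00677), there not without CIV mouse 7 (adjusted p = 0.0546).

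Compounds of the same route were also set against each other. ANIT and MDA, which both injure bile ducts, gave no called gene among the 10 or among all 13360 tested with edgeR (0.0% of genes called; 1253 had an unadjusted p under 0.05). DESeq2 called none of the 10 and 0.584% of all genes, and 3 of the 10 had an unadjusted p under 0.05 in edgeR. The largest differences were 1.96 in Hamp2, 0.92 in Hmox1 (adjusted p = 0.502) and 0.66 in Alas1 on the log2 scale, ANIT minus MDA. APAP and TAA gave none among the 10 by either tool, and none of them had an unadjusted p under 0.05 in edgeR. Of all genes, edgeR called 2.62% and DESeq2 8.24%.

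CCl4 and GAL differed in 8 of the 10 genes, where 42.5% of all genes were called. CCl4 was higher in Hpx (log2 1.52 ± 0.21, adjusted p = 0.000137), Fth1 (0.97 ± 0.13, adjusted p = 0.000137), Ftl1 (0.86 ± 0.12, adjusted p = 0.000172) and Tfr2 (0.52 ± 0.11, adjusted p = 0.00316). It was lower in Hamp2 (-1.86 ± 0.33, adjusted p = 0.000961), Hmox1 (-1.06 ± 0.32, adjusted p = 0.0201), Alas1 (-0.85 ± 0.30, adjusted p = 0.0407) and Slc40a1 (-0.70 ± 0.20, adjusted p = 0.0155). The livers of the compounds did not overlap in Hpx, Fth1, Ftl1, Tfr2, Hamp2 and Slc40a1, where 26.7% of all genes did not. Hamp (log2 -0.21, adjusted p = 0.645) and Tfrc (0.09) were not called. Under library total scaling the Tfr2 difference was 0.27 (adjusted p = 0.071). With 1 GAL mouse left out, Alas1 lost its call without mouse 2 (log2 -0.51), 4 or 8, Hmox1 without mouse 4 (-0.77) or 7 (-0.83), and Slc40a1 without mouse 4 (-0.65, adjusted p = 0.0507). Each CCl4 mouse stayed in these fits. Of 16 genes of heme synthesis and transport, 9 were higher and 1 lower in CCl4 than in GAL.

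Between vehicle groups, none of the 10 was called for CIP against Ctrl or CIV against Ctrl by edgeR or DESeq2, with 1 and 0 of them at an unadjusted p under 0.05 in edgeR (0.0131% and 0.0263% of all genes called). The saline groups held 2 mice each, which limits what such tests can show.

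For 5 of the genes, 5871 genes averaging 10 CPM or more were searched for the 3 whose centred log2(CPM + 1) over the 57 livers differed least from theirs, by root mean square difference. Hmox1, whose own root mean square was 1.40, was closest to Mafk (0.642), Chic2 (0.655) and Cdkn1a (0.671). Alas1 (own value 0.822) was closest to Tnfrsf1a (0.532), Prkab1 (0.549) and Psmc4 (0.553), and Hamp (1.18) to Xbp1 (0.632), Sod2 (0.655) and Bcl3 (0.668). Tfrc (0.872) was closest to Tmod3 (0.702), Gnai3 (0.705) and Actr3 (0.718). Slc40a1 (1.68) was closest to Ptgs1 (0.893), Shld2 (0.907) and Gpr182 (0.937), and none of these 3 was among its closest with log2(CPM + 5). With that pseudocount 1 of the 3 genes named for Hmox1 remained among its closest (2 with log2(CPM + 0.5)), and 2 of 3 each for Alas1, Hamp and Tfrc. These are descriptions over the same livers, which share their groups, and were not tested.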

How the data were processed

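Values were the estimated counts per gene that the authors deposited for 57 livers. The submitters' processing notes name Salmon 1.6.0, R 4.1.3 and GRCm39, without roles. The deposited estimated counts look length-corrected: over 4208 genes with 1 transcript, the smallest value above 0 was lower in longer genes (rho -0.944, Spearman, over genes that are not independent of each other). Symbols came from GENCODE M21, which matched 51482 of 54307 IDs, and no GRCm39 coordinates are given. Groups and numbers came from the sample descriptions, and mice of a group are separate animals.

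Counts were rounded and fitted in edgeR 4.0.16 (R 4.3.3, limma 3.58.1, data.table version 1.17.8) for each pair of groups, with filterByExpr, TMM scaling, no covariates and the two-sided quasi-likelihood test, 20 fits in all. P-values were adjusted by Benjamini-Hochberg over all genes of a fit, and called genes are those under 0.05. Standard errors derive from the F statistic. The test was also run on counts simulated from Ctrl livers with few genes changed. That setting differs from fits in which a large share of genes was called, so nothing is drawn from it here. Totals of 13826343 to 35075809 per liver set the precision. Alternatives were DESeq2 1.42.0, library total scaling, other filters, summed copies, replicate numbers as a block, number ranges (1 to 4 and above 4), and leaving out mice. Tables and figures used Python 3.11.15, pandas 2.3.3, scipy 1.17.1 and matplotlib 3.10.9.

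The 10 genes, the pathway and marker lists and the tests were chosen with earlier results of these data known. Named besides the 10 are, per pathway list and compound, the called genes of the largest rise and fall. Other list genes (Il6, Ireb2, Slc39a14), and named ones in further compounds, were picked after their values were seen.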

Additional observations from a re-analysis of the deposited data

Results flagged for a closer look

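In 6 of 70 sets of 4 to 7 mice tested for 1 mouse far from the rest by Dixon's criterion, 1 mouse stood apart, and chance alone gives about 1 in 20. ANIT mouse 3 held 562.6 CPM of Hmox1, against 137.5 to 148.7 in the other 3. CCl4 mouse 6 held 396.3 CPM of Alas1, where the group median was 186.0. MDA mouse 1 was the highest of its group in both Hamp2 (307.7 CPM, against 12.01 to 39.25) and Tfr2 (310.6 CPM, where the lowest was 203.6). TAA mouse 1 held 241.4 CPM of Tfr2, against 155.4 to 166.0. APAP mouse 1 held 2.386 CPM of Slc40a1, against 57.97 to 101.1.

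CCl4 and GAL, given by the same route, differed from each other in 8 genes by edgeR's test of the difference itself. On the log2 scale, CCl4 minus GAL, these were Hmox1 (-1.06), Alas1 (-0.85), Hamp2 (-1.86), Slc40a1 (-0.70), Tfr2 (0.52), Fth1 (0.97), Ftl1 (0.86) and Hpx (1.52).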

How the results depend on the processing

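Of 2081 values of the 10 genes under alternatives, 1905 kept their side of the threshold, 110 lost a call, 63 gained one and 3 called values changed sign. Changes of sign in values not called to begin with numbered 76, and 2 of these gained a call with library total scaling against all vehicles, Fth1 in GAL (-0.16 to 0.70) and Ftl1 in ConA (0.13 to -0.48). The 3 called ones came with library total scaling, in Ftl1 for GAL against CIP (0.06) and in Hamp and Ftl1 for GAL against all vehicles (0.02 and 0.02). With replicate numbers as a block, 3 of the 10 genes were called in ANIT against Ctrl and 1 in APAP against Ctrl (6 and 4 without it), and 3 in APAP against all vehicles (5 without it). Over all genes the block took the calls of ANIT from 3967 to 962 and of APAP from 4436 to 230. The deviations of same-numbered mice correlated by a median of 0.037 in ANIT, 0.048 in APAP, -0.021 in MDA and 0.134 in TAA (0.008 to 0.277). In none of these were all pairs over 0.1, so the numbers were not taken to pair mice. Whether their ranges mark a batch was not tested. With only mice 1 to 4, the genes called fell to 1 in APAP, 2 in MDA and 2 in TAA, from 4, 7 and 5, with fewer mice in each fit. Of all genes, 6.28%, 10.4% and 19.4% were then called (31.8%, 33.8% and 50.5% with all mice). Library total scaling gave 4 in ANIT and 8 in CCl4 against all vehicles (7 and 5 in the analysis above), with 26.4% and 62.5% of all genes called (28.0% and 53.4% above), and 2 between the number ranges of Ctrl, as did DESeq2 (1 above). The cause was not tested. Leaving out 1 mouse gave 2 to 6 in GAL against CIP (5 with all), 5 to 7 in CCl4 against GAL (8) and 0 to 1 between the ranges of Ctrl (1). The GAL low of 2 came without CIP mouse 8, and the low of 5 against CCl4 without GAL mouse 4. For the Hamp2 share, ConA minus CIV was -15.4 percentage points without CIV mouse 7 and -7.04 without CIV mouse 8 (-11.2 with both). No block could be fitted for CCl4 against GAL or CIP or for ConA against CIV, which share fewer than 2 numbers. Groups of 2 saline mice set the precision of the CCl4, GAL and ConA comparisons.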
